A study of Homo sapiens with 6 samples.

Results

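A set of 33 glycolysis and hypoxia response genes was followed in PANC1 cells, a human line derived from a ductal carcinoma of the pancreas. The genes were taken as a named list: 22 belong to glucose uptake, glycolysis and the handling of pyruvate and lactate, and 11 to the hypoxia response. Each was matched by its Ensembl identifier to the deposited expression table, which holds 20461 genes. All 33 were found there, and all 33 passed the filter on low counts. The RNA-seq libraries came from 2 cultures given the vehicle, 0.1% DMSO, and 2 cultures given gemcitabine at 50 nM, a nucleoside analogue that blocks DNA synthesis. Treatment lasted 48 h, and the study describes the cultures as 2 biological replicates per condition. DNaseI-seq, which marks open chromatin, was available from 1 vehicle and 1 gemcitabine library. The cells were cultured in 1 established line and at 1 dose, and no library from cells deprived of oxygen was analysed here.

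Glycolysis splits glucose into pyruvate in the cytosol. Hexokinase traps the sugar in the cell, phosphofructokinase commits it to breakdown, and lactate dehydrogenase turns pyruvate into lactate, which monocarboxylate transporters carry out. When oxygen is scarce, the prolyl hydroxylases no longer mark the HIF alpha subunits for degradation, and HIF then raises many glycolytic genes by binding the letters ACGTG or GCGTG, the core of the hypoxia response element. Pancreatic carcinomas are known as poorly perfused tumours with a high use of glucose. HIF alpha is controlled largely at the level of the protein, which RNA-seq does not measure.

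The core letters ACGTG stood in the promoters of 17 of the 33 genes (51.5%), against 25.4% of 14445 promoters, where a promoter is the 300-base stretch from 250 bases before to 50 bases after the canonical start, read on both strands. The letters GCGTG stood in 20 of the 33 (60.6%), against 50.7% of all promoters. At least 1 of these motifs was found for 30 of the 33 (90.9%), against 62.3%. The median GC content was 71.0% for the listed promoters and 66.0% for all, and both motifs are rich in G and C. Among the 4 genes that rose ACGTG was found in 1, among the 19 that fell in 10, and among the 10 that did not pass the test in 6. A match is only a description of the letters and not a site of binding, and its absence says only that the letters are not in the window. The 60-base stretches below were read from the GRCh37 (hg19) reference. They are shown for the 8 genes that passed the test for a change in RNA and hold ACGTG within 100 bases before the start. Capitals mark ACGTG, or CACGT where it lies on the opposite strand. In LDHA the palindrome CACGTG holds an overlapping match on each strand. Every stretch runs 5′ to 3′ along the strand of its gene.
HK2, chr2:75061171-75061230, plus strand: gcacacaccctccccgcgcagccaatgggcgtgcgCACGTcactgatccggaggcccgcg
ALDOC, chr17:26903917-26903976, minus strand: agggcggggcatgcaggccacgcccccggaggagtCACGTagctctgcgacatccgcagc
LDHA, chr11:18416002-18416061, plus strand: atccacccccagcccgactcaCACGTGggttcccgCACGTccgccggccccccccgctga
PDK1, chr2:173420758-173420817, plus strand: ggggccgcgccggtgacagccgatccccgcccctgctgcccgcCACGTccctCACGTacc
SLC16A3, chr17:80186828-80186887, plus strand: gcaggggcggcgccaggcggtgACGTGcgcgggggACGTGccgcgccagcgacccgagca
EGLN1, chr1:231558034-231558093, minus strand: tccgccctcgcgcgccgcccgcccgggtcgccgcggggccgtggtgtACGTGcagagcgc
CA9, chr9:35673865-35673924, plus strand: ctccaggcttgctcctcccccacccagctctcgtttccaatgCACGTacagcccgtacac
P4HA1, chr10:74856686-74856745, minus strand: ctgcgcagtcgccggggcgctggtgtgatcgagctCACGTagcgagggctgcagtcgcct

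The vehicle libraries held 15153593 and 15766237 fragments assigned to genes, and the gemcitabine libraries 13194533 and 13275457. A count of 3 fragments, the limit that a count of 0 allows, came to between 0.190 and 0.227 CPM (fragments scaled to the library's total), which covers counting error only. Of the epithelial and ductal markers, KRT8, KRT18 and KRT7 were high, whereas KRT19 reached 3.06 to 6.91 FPKM and SOX9 3.12 to 3.91. Of the mesenchymal features of the line, VIM was high and ZEB1 reached 7.67 to 11.3 FPKM. Of 12 measured markers of leukocytes, endothelium, acinar, islet, liver and red cells, 11 had at most 9 fragments in any library, and 5 of these were at 0 throughout. Their summed fragments were 5 to 6 in the vehicle and 10 to 11 in the gemcitabine libraries. The exception was CD68, a lysosomal protein used as a macrophage marker, with 133 and 154 fragments in vehicle and 238 and 269 in gemcitabine. Its part in the results was not tested. In bulk libraries, fewer cells expressing a gene and less of its RNA per cell cannot be told apart.

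In vehicle-treated cells 12 of the 22 genes of uptake, glycolysis, pyruvate and lactate were among the top 5% of the 14854 genes tested by mean FPKM, and 7 among the top 1%. On the FPKM scale, which corrects for transcript length, ALDOA stood at 3167 ± 265 (SD, n = 2), GAPDH at 2655 ± 186, PKM at 1714 ± 55.4, ENO1 at 1522 ± 18.0 and LDHA at 1299 ± 19.7. PKM and ENO1 differed by more than their spread, while the SDs of ALDOA and GAPDH together spanned most of the distance between them. PGK1, LDHB, GPI and TPI1 followed, between 466 and 856. HIF1A reached 306 ± 19.9 FPKM and SLC16A3 327 ± 28.4, which overlapped. The lowest levels were those of PFKFB4, at 2.90 ± 0.404, and ANKRD37, at 8.22 ± 0.0481. The median over the 33 genes was 61.8 FPKM. Together the 33 genes took 1.71% ± 0.0368 of all fragments in vehicle and 1.56% ± 0.0580 after gemcitabine (SD, n = 2). For the 11 hypoxia response genes the shares were 0.145% ± 0.0023 and 0.116% ± 0.0008. Both shares were lower in each gemcitabine library than in either vehicle library.

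After gemcitabine, 19 of the 33 genes fell and 4 rose. The largest fall was that of HK2, the inducible hexokinase, and it was followed by PDK1, HIF1A, CA9 and SLC16A3. The 4 genes that rose were PFKFB4, ALDOC, ADM and SLC2A1. All 4 genes of pyruvate and lactate handling fell, as did all 4 HIF subunits and prolyl hydroxylases on the list, whereas 6 of the 9 enzymes from aldolase to pyruvate kinase did not pass the test. With library totals in place of TMM, LDHB and EGLN3 no longer passed. Calls were made with edgeR's quasi-likelihood test on fragment counts with TMM scaling, which sets the libraries level by the bulk of their genes, at a Benjamini-Hochberg adjusted p under 0.05 over 14854 genes. Over all genes tested, 38.5% were called, with 20.0% lower and 18.5% higher. The share of listed genes called lower, 57.6%, stood above this background, and the share called higher, 12.1%, below it. The list was chosen with earlier results of these data known. Its distance from the background is therefore a description and not an independent test. Calls depend on depth. Among genes with a mean of at least 500 fragments, a limit chosen after the data were seen, 31.4% were lower and 17.1% higher, and of the 26 listed genes at that depth 17 (65.4%) were lower and 1 was higher.

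Over the 33 genes the median change was -0.29 on the log2 scale, against 0.01 over all genes tested, and 26 of the 33 lay below the median of all genes. The limit from the choice of the list holds for these medians too. Scaling by library totals in place of TMM moved the median of all genes to 0.12 and that of the list to -0.17, and again 26 of the 33 lay below the median of all genes. With that scaling 5 listed genes were called higher and 15 lower, PGK1, LDHB, BNIP3 and EGLN3 having lost the call, while over all genes the calls went from 2750 higher and 2975 lower to 4074 higher and 1977 lower. The values of the vehicle and gemcitabine libraries did not overlap for 5 listed genes that were higher and 24 that were lower, where the background was 35.0% of genes higher and 34.7% lower. Each fit that leaves out a library sets 1 library against 2, so the spread comes from the remaining pair and the lone library is assumed to vary in the same way. Leaving out vehicle replicate 1 left 9 listed genes lower and 3 higher, and leaving out vehicle replicate 2 left 12 lower and 0 higher in edgeR's test, with 3 higher at an unadjusted p under 0.05. Over all genes the calls in these fits fell as well, from 5725 to 2746 and 2609, of which 1457 and 1384 were lower. Without vehicle replicate 1 the falls of GPI, PFKFB3, PGK1, LDHB, CA9, BNIP3, NDRG1, EGLN3, EPAS1 and P4HA1 and the rise of PFKFB4 lost the call. Without vehicle replicate 2 it was lost by GPI, PFKFB3, PGK1, LDHB, BNIP3, EGLN3 and EPAS1 and by all 4 genes that rose. PFKFB4 lost it without gemcitabine replicate 1 too. The 9 genes that kept an adjusted p under 0.05 in edgeR's quasi-likelihood test in each of the 4 such fits were HK2, PFKM, ENO1, LDHA, PDK1, SLC16A3, HIF1A, EGLN1 and VEGFA, and all 9 fell.

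**Figure D1:**
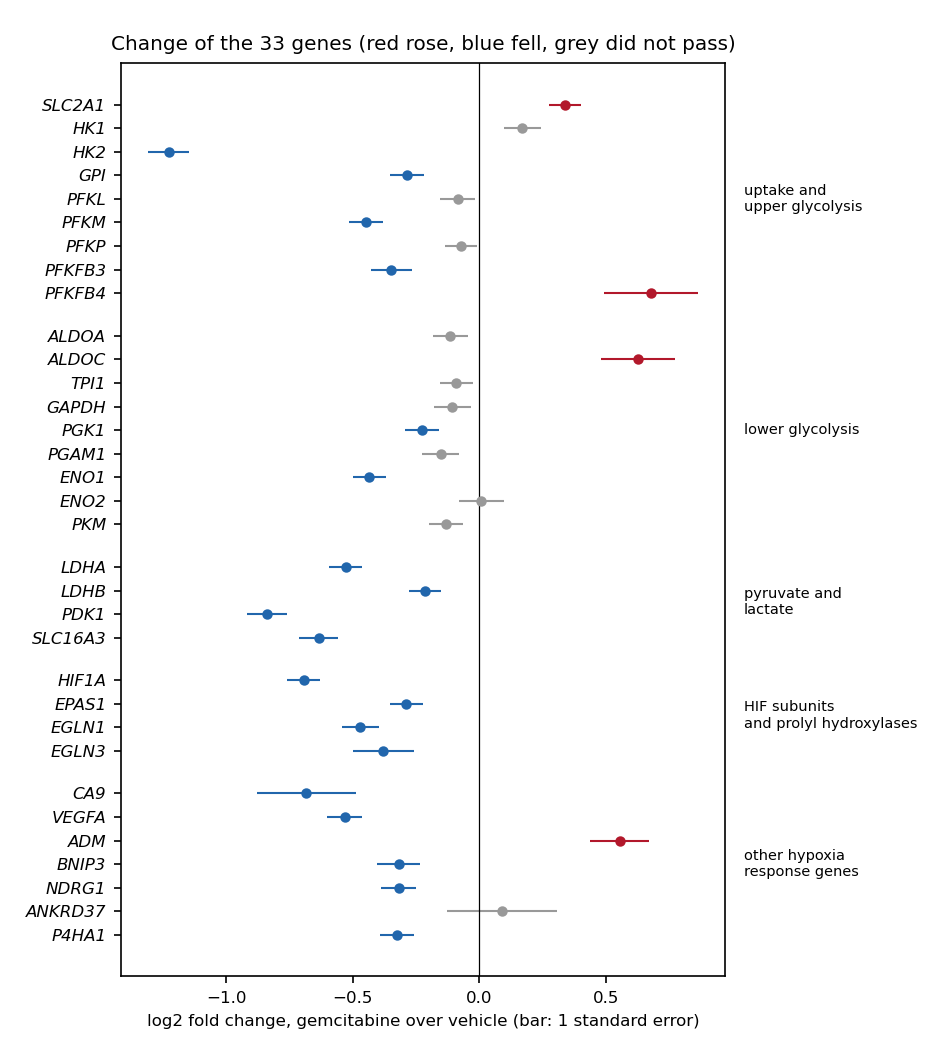
Log2 fold change of the 33 genes, gemcitabine over vehicle, from edgeR, grouped by role. Points are the fitted changes and bars 1 standard error; 19 genes fell (blue), 4 rose (red) and 10 did not pass (grey), and the values run from -1.23 for HK2 to 0.68 for PFKFB4.

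The criteria of the study add a fold change over 1.5, a mean of at least 0.1 FPKM in a condition and a difference of at least 1 FPKM to the adjusted p. Under them, with edgeR's adjusted p and its fold of fragments in place of the values of Cuffdiff, 6 of the 33 genes were called, 1 higher and 5 lower, against 10.1% of all genes, of which 5.69% higher and 4.43% lower. ALDOC was higher, and HK2, PDK1, SLC16A3, CA9 and HIF1A were lower. With the ratio of mean FPKM as the fold, an alternative chosen after the data were seen, 6 were called as well, but 2 were higher and 4 lower, since ADM came in and SLC16A3 dropped out. Over all genes that rule called 11.3%, with 8.13% higher and 3.16% lower. With the fold of fragments, 845 of all genes were higher and 658 lower. From Cuffdiff's own values the study reported fewer genes in each direction, most of them higher.

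Among the genes of uptake and upper glycolysis, 2 of 9 rose and 4 fell. SLC2A1, the glucose transporter GLUT1 (chr1:43391024-43424564), had 250 and 244 scaled CPM (CPM after TMM scaling, not corrected for length) in the vehicle libraries and 313 in each gemcitabine library. Both gemcitabine values lay above both vehicle values. The log2 fold change was 0.34 (SE 0.064, edgeR adjusted p = 0.000790), a rise of 26.5%.

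HK2 (chr2:75061254-75120486), a hexokinase raised in many tumours, had 88.2 and 82.0 scaled CPM in vehicle. In the gemcitabine libraries it had 34.5 and 38.2. The groups were far apart: the log2 fold change was -1.23 (SE 0.081, edgeR adjusted p = 1.10e-07), and the level fell by 57.3%. HK1, the hexokinase found in most tissues, did not pass, with a log2 fold change of 0.17 (SE 0.073, edgeR adjusted p = 0.0786) and gemcitabine values above the vehicle ones in both libraries. The shares of these enzymes therefore shifted. On the FPKM scale HK2 made up 19.9% ± 0.885 of HK1 and HK2 together in vehicle and 7.35% ± 0.365 after gemcitabine (SD, n = 2). By fragments, with no correction for length, the shares were 40.3% and 20.4%.

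Of the phosphofructokinases, PFKM, the muscle type, had 235 and 237 scaled CPM in vehicle and 166 and 181 after gemcitabine. Its gemcitabine values were both lower, with a log2 fold change of -0.45 (SE 0.069, edgeR adjusted p = 0.000142). Cuffdiff marked the estimate of PFKM as failed in all 4 libraries, and 516 bases of its annotated exons are shared with SENP1 on the other strand, which the counting could not separate if strand was not kept. PFKL and PFKP, the liver and platelet types, did not pass, at -0.08 (SE 0.069) and -0.07 (SE 0.064), and both turned positive when library totals were used. GPI, which turns glucose 6-phosphate into fructose 6-phosphate, fell by 17.9% in fragments, and the log2 ratio of its mean FPKM was -0.155. On the annotation 542 bases of its exons are shared with another gene on the same strand.

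PFKFB3 and PFKFB4 make fructose 2,6-bisphosphate, the strongest activator of phosphofructokinase. PFKFB4 had 7.78 and 6.04 scaled CPM in vehicle and 12.8 and 9.33 after gemcitabine. It rose in both libraries, at a low level and with a wide error (log2 fold change 0.68, SE 0.19, edgeR adjusted p = 0.00945). Leaving out 1 library moved it between 0.44, without gemcitabine replicate 1, and 0.89, and the call held in 1 of these 4 fits. On the annotation 298 bases of its exons are shared with UCN2 on the same strand. PFKFB3 had 61.2 and 61.8 scaled CPM in vehicle and 45.2 and 51.6 after gemcitabine, and so fell in fragments (log2 fold change -0.35, SE 0.081, edgeR adjusted p = 0.00363). Its FPKM pointed the other way. The FPKM of PFKFB3 were 23.9 and 31.9 in vehicle and 27.9 and 38.1 after gemcitabine, so that the groups overlapped and the log2 ratio of the means was 0.24. The direction of PFKFB3 therefore depends on the unit.

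From aldolase to pyruvate kinase, 1 of 9 genes rose and 2 fell. ALDOC, the aldolase known from brain (chr17:26900133-26903966), was the one that rose. It had 8.95 and 7.36 scaled CPM in vehicle and 12.8 and 12.4 after gemcitabine, which do not overlap. The log2 fold change was 0.63 (SE 0.15, edgeR adjusted p = 0.00374). It remained a minor form: ALDOC held 0.420% ± 0.0145 of the FPKM of the aldolases in vehicle and 0.709% ± 0.0321 after gemcitabine (SD, n = 2), nearly all the rest being ALDOA.

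ENO1, the widespread enolase, had 2651 and 2607 scaled CPM in vehicle and 1949 and 1944 after gemcitabine. Both conditions were tight, and the log2 fold change was -0.43 (SE 0.064, edgeR adjusted p = 0.000109). PGK1, which makes ATP from 1,3-bisphosphoglycerate, fell by 14.5% in fragments, a call that was lost with library totals. The FPKM of PGK1 overlapped, with 877 and 835 in vehicle and 839 and 797 after gemcitabine. ALDOA, TPI1, GAPDH, PGAM1, ENO2 and PKM did not pass, with log2 fold changes between -0.15 for PGAM1 and 0.01 for ENO2. GAPDH, often used as a reference gene, had 3126 and 2927 scaled CPM in vehicle and 2959 and 2665 after gemcitabine, which overlapped. The signs of these small changes were not stable: of the 10 listed genes that did not pass, 7 were negative with TMM and 3 with library totals, GAPDH moving from -0.11 to 0.01. GAPDH also shares sequence with 65 annotated pseudogenes named after it, PGAM1 with 13 and PKM with 5, so reads may have been split between copies.

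All 4 genes that act on pyruvate and lactate fell. LDHA, the lactate dehydrogenase form of glycolytic tissue (chr11:18416107-18429972), had 1483 and 1490 scaled CPM in vehicle and 1033 and 1029 after gemcitabine. The gap was many times the spread, with a log2 fold change of -0.53 (SE 0.064, edgeR adjusted p = 1.85e-05). LDHB, the form of heart muscle, fell by 13.8% (log2 fold change -0.21, SE 0.064, edgeR adjusted p = 0.0164), a call lost with library totals. LDHA made up 62.4% ± 0.588 of the FPKM of both in vehicle and 59.1% ± 0.611 after gemcitabine (SD, n = 2).

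PDK1, a kinase that blocks pyruvate dehydrogenase and so the turning of pyruvate into acetyl-CoA in the mitochondria (chr2:173420101-173473397), had 75.6 and 77.4 scaled CPM in vehicle. After gemcitabine it had 40.6 and 44.9. Both values were lower than either vehicle value, and the level fell by 44.1% (log2 fold change -0.84, SE 0.077, edgeR adjusted p = 1.71e-06). On the FPKM scale PDK1 held 11.6% ± 0.610 of the family in vehicle and 6.02% ± 1.37 after gemcitabine. PDK4 was the main form in both, at 60.7% ± 1.68 and 63.8% ± 4.77, a difference within the spread (SD, n = 2).

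SLC16A3, the lactate exporter MCT4 (chr17:80175810-80219005), had 383 and 351 scaled CPM in vehicle and 222 and 251 after gemcitabine. The groups were apart, and the log2 fold change was -0.63 (SE 0.076, edgeR adjusted p = 1.69e-05). On the annotation, 482 bases of its exons are shared with CSNK1D on the other strand.

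**Figure D2:**
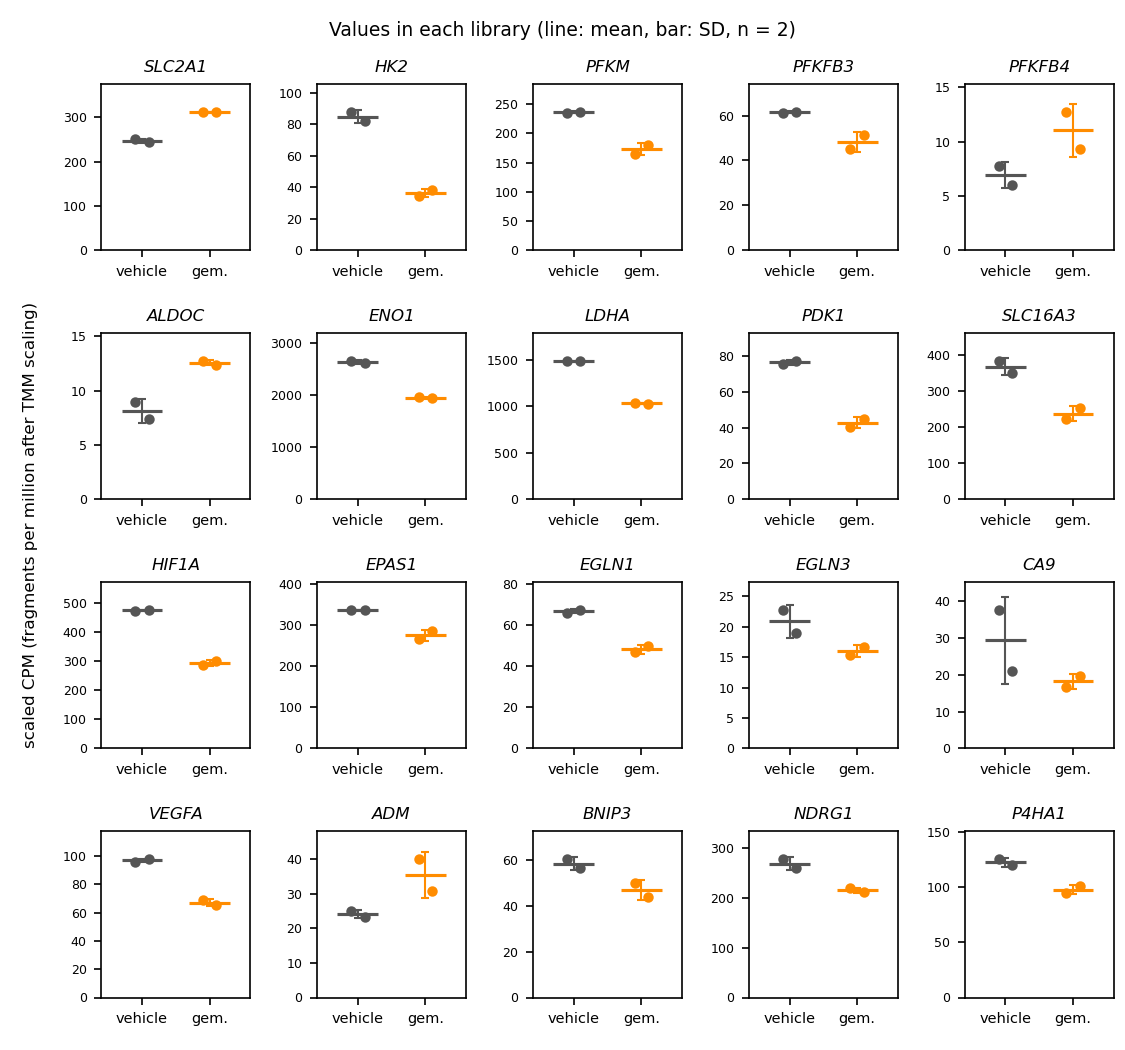
Scaled CPM (counts per total, TMM scaled) in each library for 20 genes, the 19 that passed with a log2 change of at least 0.3, and EPAS1. Points are libraries, lines the means and bars the SD (n = 2); no panel shows overlap between vehicle and gemcitabine, and CA9 has the widest vehicle spread relative to its mean, 37.6 and 21.0.

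The alpha subunits and hydroxylases on the list all fell. HIF1A, which encodes the HIF-1 alpha subunit (chr14:62162231-62214977), had 475 and 476 scaled CPM in vehicle and 287 and 301 after gemcitabine. The vehicle libraries were nearly equal and both gemcitabine libraries were well below them. HIF1A fell by 38.2%, a log2 fold change of -0.69 (SE 0.065, edgeR adjusted p = 2.06e-06). Over the fits that left out 1 library its log2 fold change ran from -0.72 to -0.66.

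EPAS1, which encodes HIF-2 alpha (chr2:46520806-46613836), had 336 and 337 scaled CPM in vehicle and 266 and 285 after gemcitabine. Both gemcitabine values were lower, with a log2 fold change of -0.29 (SE 0.066, edgeR adjusted p = 0.00332). In FPKM the EPAS1 groups overlapped, with 68.2 and 62.5 in vehicle and 68.6 and 57.7 after gemcitabine, so its fall was seen in fragments only. HIF1A made up 82.4% ± 0.0466 of the FPKM of both subunits in vehicle and 76.2% ± 2.76 after gemcitabine (SD, n = 2). ARNT, the beta subunit that both need, had a log2 fold change of 0.01 (SE 0.068, edgeR adjusted p = 0.893). Other regulators of HIF passed the test in both directions. HIF1AN (0.35) and CITED2 (0.36) rose, while CREBBP (-0.38) and EP300 (-0.27) fell. ARNT and these genes lie outside the rule for naming genes given below.

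EGLN1, the prolyl hydroxylase PHD2 and main oxygen sensor of the pathway, had 66.1 and 67.5 scaled CPM in vehicle and 46.8 and 49.7 after gemcitabine. It fell in both libraries (log2 fold change -0.47, SE 0.075, edgeR adjusted p = 0.000193). EGLN3, or PHD3, itself a target of HIF, had 22.8 and 19.0 scaled CPM in vehicle and 15.4 and 16.7 after gemcitabine. Its groups were apart by little more than the spread of the vehicle libraries (log2 fold change -0.38, SE 0.12, edgeR adjusted p = 0.0214). The call of EGLN3 was also lost with library totals, in DESeq2 and without the filter on low counts, and its log2 fold change was -0.24 without vehicle replicate 1. EGLN2, the third enzyme, gave 0.06 (SE 0.074, edgeR adjusted p = 0.553).

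Of the remaining 7 hypoxia response genes, 5 fell and 1 rose. CA9, the surface carbonic anhydrase used as a hypoxia marker (chr9:35673925-35681156), had 37.6 and 21.0 scaled CPM in vehicle and 16.8 and 19.6 after gemcitabine. The second vehicle library lay close to the gemcitabine ones, and the fall rested on the first. The log2 fold change of CA9 was -0.68 (SE 0.20, edgeR adjusted p = 0.0124) and shrank to -0.20 without vehicle replicate 1, while it was -1.04 without vehicle replicate 2. The call of CA9 was also lost in DESeq2 and without the filter on low counts. Its exons share 571 bases with ARHGEF39 on the other strand.

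VEGFA, the growth factor for blood vessels, had 95.9 and 97.9 scaled CPM in vehicle and 68.8 and 65.3 after gemcitabine. Its fragments fell by 30.8% (log2 fold change -0.53, SE 0.069, edgeR adjusted p = 3.37e-05). The FPKM of VEGFA were closer together, 48.3 and 44.5 in vehicle and 41.4 in each gemcitabine library, with a log2 ratio of -0.17.

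ADM, the vasodilator peptide adrenomedullin, was the gene of this group that rose. It had 25.0 and 23.3 scaled CPM in vehicle and 40.1 and 30.8 after gemcitabine. Both gemcitabine values were higher, though they differed between themselves by more than the vehicle ones did (log2 fold change 0.56, SE 0.12, edgeR adjusted p = 0.00168). The log2 fold change of ADM was 0.35 without gemcitabine replicate 1, and the call was lost without vehicle replicate 2.

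BNIP3, a receptor for the removal of mitochondria, had 60.5 and 56.5 scaled CPM in vehicle and 50.0 and 43.8 after gemcitabine, and fell by 19.8%. NDRG1, a stress-induced gene, had 277 and 258 scaled CPM in vehicle and 218 and 211 after gemcitabine, a fall of 19.8% as well. P4HA1, a subunit of the collagen prolyl hydroxylase, had 126 and 120 scaled CPM in vehicle and 95.0 and 101 after gemcitabine, and fell by 20.2%. In scaled CPM the groups of all 3 genes were apart, and the edgeR adjusted p were 0.00792 for BNIP3, 0.00180 for NDRG1 and 0.00166 for P4HA1. In FPKM NDRG1 overlapped, with 256 and 245 in vehicle and 248 and 203 after gemcitabine, and BNIP3 lost its call with library totals. The annotation has 44 pseudogenes named after BNIP3. ANKRD37, a small HIF target, did not pass, with 4.13 and 4.07 scaled CPM in vehicle and 4.61 and 4.11 after gemcitabine, which overlapped. The exons of ANKRD37 share 909 bases with UFSP2 on the other strand.

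Where a family has several forms, its makeup by FPKM differed between conditions by more than the spread of the libraries in 9 of 10 families for the form followed. These are descriptions, since 2 libraries against 2 cannot give an exact permutation p under 0.333. SLC2A1 held 69.0% ± 0.844 of the FPKM of SLC2A1 and SLC2A3 in vehicle and 78.5% ± 0.196 after gemcitabine (SD, n = 2). ENO1 held 66.6% ± 0.552 of the enolases in vehicle and 59.8% ± 0.948 after gemcitabine, while ENO3, the muscle form, held 32.7% ± 0.505 and 39.1% ± 1.02. On the annotation ENO3 shares 111 exonic bases with PFN1 on the other strand, and its part in these shares was not tested. PFKM went from 41.8% ± 0.401 to 35.9% ± 3.18 of the phosphofructokinases, and EGLN1 from 18.6% ± 1.55 to 15.7% ± 1.36 of the prolyl hydroxylases. The PFKM share, 1 of the 9, rests on estimates that Cuffdiff marked as failed in all 4 libraries. For PFKFB3 the difference was within the spread, at 78.1% ± 4.61 and 76.0% ± 4.28.

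**Figure D3:**
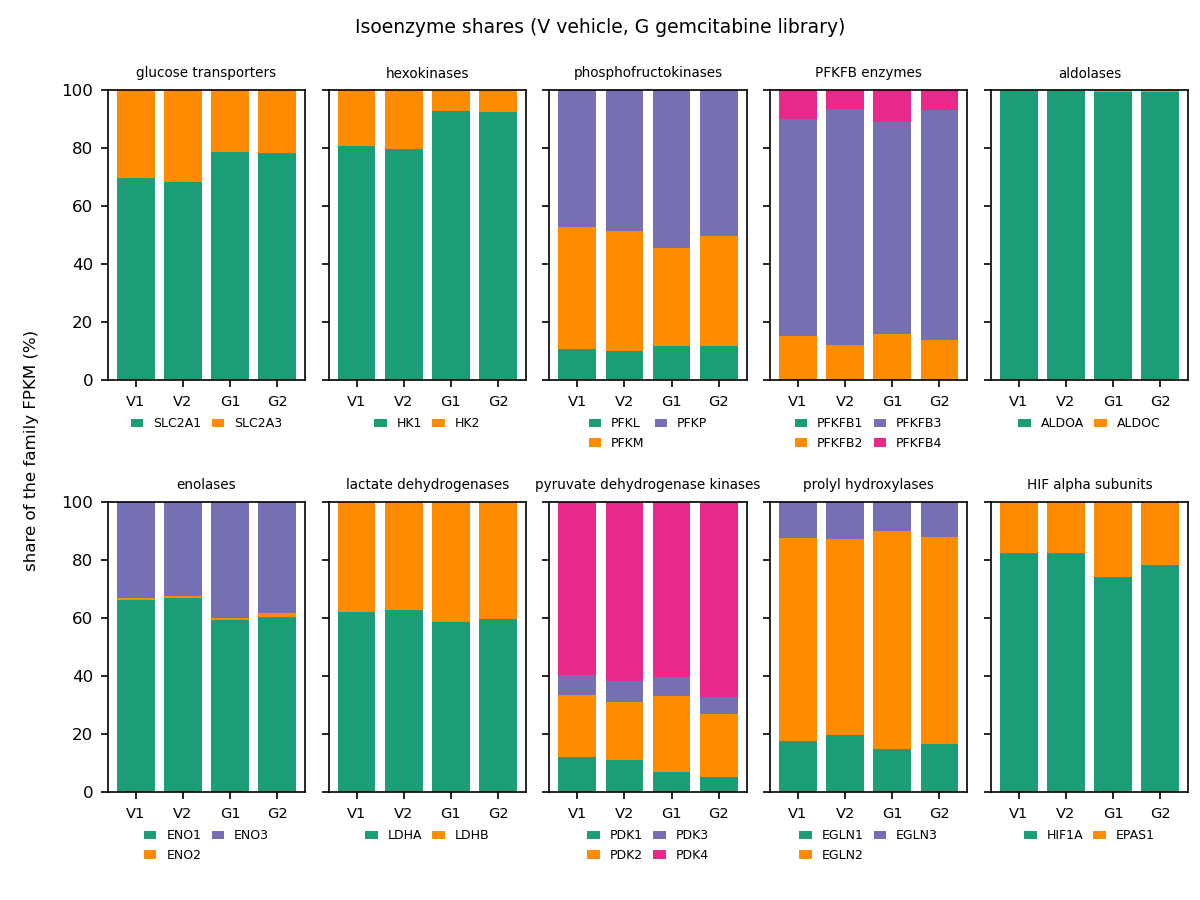
Share of each family's summed FPKM (%, from 0 to 100) held by each form in every library, V for vehicle and G for gemcitabine. HK2 shrinks from 19.9% to 7.35% of the hexokinases and SLC2A1 grows from 69.0% to 78.5% of the glucose transporters shown, as means of 2 libraries.

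FPKM divides by transcript length and is summed over the transcripts of a gene, whereas fragments are not corrected for length. The fragments are also TMM scaled and the FPKM are not. Over 11639 genes above 1 FPKM in both conditions, the log2 ratio of mean FPKM exceeded the log2 fold change of fragments by 0.12 in the median, and between the 5th and 95th percentiles the difference ran from -0.16 to 0.42. Against fragments scaled by library totals the median was 0.01, and the range from -0.27 to 0.31. For the 33 genes the median difference was 0.11. Just 2 of the 33 lay outside that range: PFKFB3, at 0.59, and PFKFB4, at -0.28, and they were also the 2 outside the range with library totals. VEGFA, at 0.37, and PGAM1, at 0.31, lay within it. Of the 23 genes that passed, PFKFB3 alone changed sign between the units.

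**Figure D4:**
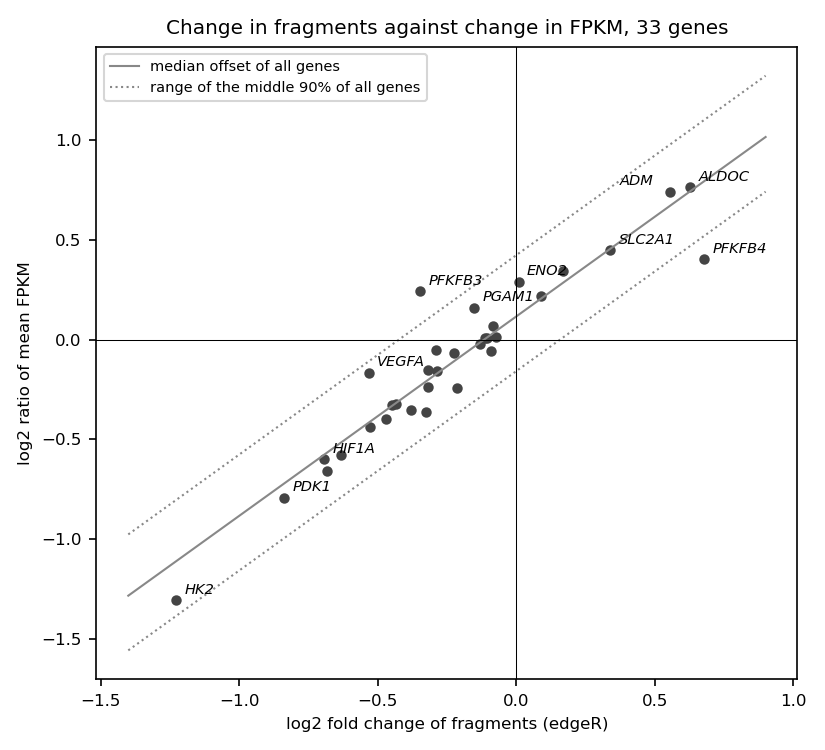
Log2 ratio of mean FPKM against the log2 fold change of fragments from edgeR for the 33 genes, with the median offset of all genes (solid line) and the range from the 5th to the 95th percentile (dotted lines). PFKFB3 lies above the range at -0.35 in fragments and 0.24 in FPKM, and PFKFB4 below it.

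Open chromatin was compared by the peaks within 1000 bases of any annotated transcript start. The vehicle list held 9606 peaks and the gemcitabine list 10695. In the vehicle library, 14 of the 33 genes had such a peak (42.4%), against 27.6% of 14510 genes. In the gemcitabine library, 12 had one (36.4%), against 32.0%. Within 5000 bases the order of the libraries turned, with 15 of the 33 genes (45.5%) in vehicle and 17 (51.5%) in gemcitabine, against 31.6% and 36.5% of all genes. A peak was present in both libraries for 9 genes, GPI, PFKM, PFKFB4, ALDOA, PKM, LDHA, SLC16A3, NDRG1 and ANKRD37. It was listed in vehicle only for PFKFB3, PGK1, ENO1, EGLN1 and P4HA1 (15.2% of the 33, against 6.73% of all genes), and in gemcitabine only for GAPDH, VEGFA and ADM (9.09%, against 11.1%). All 5 genes with a peak in vehicle only were among those called lower in fragments, as were 57.6% of the 33. One of them, PFKFB3, did not fall in FPKM. The share called lower among all genes with a peak in vehicle only was not measured, so this count has no background to be read against. A link between peaks and RNA was not tested. ADM, with a peak in gemcitabine only, was among those that rose, but VEGFA, with the same pattern, fell. Of these 8 peaks in 1 library, 5 were weak: the vehicle peaks of PGK1, ENO1, EGLN1 and PFKFB3 lay between the percentiles 0.1 and 28.0 of the scores of that library, and the gemcitabine peak of ADM at the percentile 4.8. Those of P4HA1, VEGFA and GAPDH lay between the percentiles 55.6 and 67.9. With 1 library per condition there is no replicate check, and a peak absent from a list may lie just under the authors' cutoff.

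For 16 of the 33 genes (48.5%, against 61.2% of all) neither library had a peak, and these include HK2, PDK1, CA9, ALDOC and HIF1A. HIF1A reached 306 FPKM in vehicle, so the lack of a listed peak cannot be read as closed chromatin. For each gene and library only the highest-scoring peak near a start was kept. Of the 8 stretches printed, that of P4HA1 lay inside such a peak. In vehicle this peak ran from 684 bases before to 304 bases after the start. Those of HK2, ALDOC, PDK1 and CA9 had no peak near them in either library. The kept peaks of LDHA began 995 bases after the canonical start in vehicle and 1108 bases after it in gemcitabine. Those of SLC16A3 lay at another transcript start upstream, and that of EGLN1, in vehicle, began 1325 bases after the canonical start. Whether a weaker peak covers the stretches of LDHA, SLC16A3 and EGLN1 was not examined. Restricting the lists to peaks above their median score left 7 of the 33 genes with a peak in each library, against 17.0% of all genes in vehicle and 18.7% in gemcitabine.

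**Figure D5:**
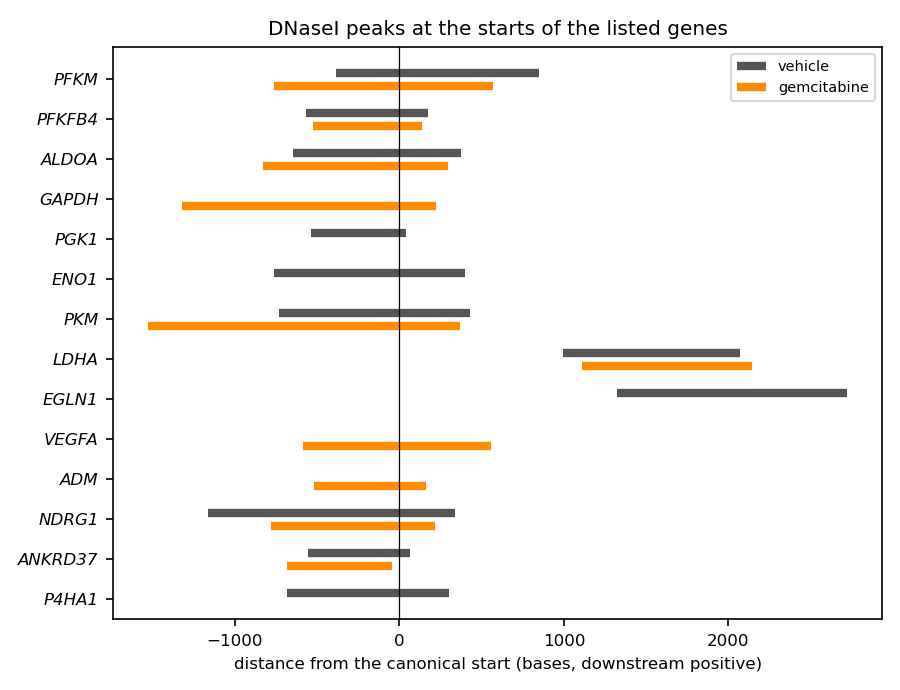
DNaseI peaks at 14 genes, the highest-scoring one per library, where it lies within 3000 bases of the canonical start. Positions are distances from that start in bases, downstream positive. Grey bars are the vehicle peaks and orange bars the gemcitabine peaks. Most cover the start, and PGK1, ENO1, EGLN1 and P4HA1 have a peak in the vehicle library only.

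The 33 genes lie on 17 chromosomes. The largest groups are 6 on chromosome 10 (HK1, PFKP, PFKFB3, PGAM1, BNIP3 and P4HA1) and 5 on chromosome 12, where GAPDH, TPI1 and ENO2 lie within 389 kb. These 3 neighbours were all among the genes that did not pass.

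Other genes of the same pathways were taken from 2 further lists. Of 65 other genes of glycolysis and glucose carbon, 55 could be tested: 11 rose (20.0%) and 10 fell (18.2%), near the background of 18.5% and 20.0%, and their median change was 0.06 on the log2 scale. With library totals 21 of them were called higher, while over all 14854 genes the calls higher went from 2750 to 4074. The largest rises were those of LDHD, a mitochondrial D-lactate dehydrogenase (log2 fold change 1.67, SE 0.40, edgeR adjusted p = 0.00459), HKDC1, a further hexokinase (1.28, SE 0.48, edgeR adjusted p = 0.0472), PDP1, the phosphatase that reactivates pyruvate dehydrogenase (0.99, SE 0.099, edgeR adjusted p = 3.24e-06), and SLC2A6, a glucose transporter (0.82, SE 0.14, edgeR adjusted p = 0.000339). LDHD and HKDC1 had at most 52 and 29 fragments in any library. The largest falls were those of RPIA, of the pentose phosphate pathway (-1.09, SE 0.11, edgeR adjusted p = 3.98e-06), GPD1L (-0.58, SE 0.095, edgeR adjusted p = 0.000267), and the monocarboxylate transporters SLC16A1 (-0.56, SE 0.067, edgeR adjusted p = 1.68e-05) and SLC16A7 (-0.54, SE 0.12, edgeR adjusted p = 0.00200). PDP2, the other phosphatase of pyruvate dehydrogenase, fell (-0.52, SE 0.095, edgeR adjusted p = 0.000564), and the kinases PDK2, PDK3 and PDK4 did not pass. PDP2 and these kinases were named after their values were seen.

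Of 67 other hypoxia response genes, 58 could be tested: 13 rose (22.4%) and 19 fell (32.8%), against 18.5% and 20.0% of all genes tested, and the median change was -0.03 on the log2 scale. Among all genes with a mean of at least 500 fragments, 17.1% were higher and 31.4% lower, and neither further list was matched for depth. Among the largest rises were those of ARNT2, a relative of the beta subunit (1.45, SE 0.20, edgeR adjusted p = 6.51e-05), SPAG4 (1.12, SE 0.22, edgeR adjusted p = 0.00118) and WSB1, part of a ubiquitin ligase (0.81, SE 0.11, edgeR adjusted p = 3.18e-05). The largest falls were those of SLC6A8, the creatine transporter (-1.03, SE 0.075, edgeR adjusted p = 2.17e-07), TFRC, the transferrin receptor (-1.01, SE 0.068, edgeR adjusted p = 1.35e-07), MXI1, of the MYC and MAX network (-0.95, SE 0.085, edgeR adjusted p = 1.30e-06), and ZNF395 (-0.81, SE 0.22, edgeR adjusted p = 0.00881). Cuffdiff marked the estimate of TFRC as failed in all 4 libraries. ZNF395 had at most 96.9 fragments in any library. Its FPKM overlapped, with 2.884 and 4.455 in vehicle and 3.789 and 1.879 after gemcitabine.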

How the data were processed

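RNA was measured in 2 vehicle and 2 gemcitabine libraries, prepared with the Illumina mRNA protocol, and open chromatin in 1 DNaseI-seq library per condition. Single-end reads were mapped by the authors with TopHat2 2.0.8 (hg19), who then quantified protein-coding genes of Gencode 15 with Cuffdiff 2.0.2 at a minimum of 10 reads. The deposited table holds estimated counts (fragments, with 86.8% of values whole) and FPKM, as the authors obtained them from Cuffdiff. The deposited peak lists, called by the authors with MACS per condition at a p of 1e-05, hold a score used here only to rank peaks. The table's own library index matches no label, and replicate numbers here are names only.

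Estimated counts were rounded, genes whose fragments summed to 10 or more were kept, and edgeR 4.0.16 in R 4.3.3 gave quasi-likelihood tests after TMM scaling, with Benjamini-Hochberg adjustment over all genes tested. The common biological coefficient of variation was 0.0522. P-values rest on the spread of 2 cultures per condition, with the spread of each gene drawn towards the trend over all genes tested. Values in every library were printed for genes past the test with a log2 change of at least 0.3 and for HIF1A and EPAS1; of the other lists, the 4 largest rises and falls past the test with a mean of at least 1 FPKM in a condition. A result that this rule would name is not reported here. Alternatives were DESeq2 1.42.0, other scalings and filters, limma 3.58.1 on log2(FPKM + 1) and log2(FPKM + 0.1), a threshold of 0.01, and leaving out each library. The steps were tested on simulated data. Starts and sequences came from Gencode annotation lifted to GRCh37, a later version than the authors', and 1 canonical start per gene. The listed genes and lists were chosen with earlier results of these data known.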

Additional observations from a re-analysis of the deposited data

How the results depend on the processing

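No paired analysis was possible because the table's library index matches no label. Of 396 refitted log2 fold changes of the 33 genes, 276 kept direction and call, 91 lost and 5 gained the call, and 24 reversed. Leaving out 1 library gave 0 to 4 listed genes higher and 9 to 22 lower, 3 to 13 and 6 to 14 other glycolysis genes, 6 to 12 and 7 to 20 other hypoxia genes, and 4 to 8 by the study's criteria. limma without a filter, with a mean of at least 0.1 FPKM and with a pseudocount of 0.1 called 0, 1 and 0 listed genes higher (main 4) and 2, 3 and 0 lower (main 19), 1, 4 and 0 other glycolysis genes higher and 0, 1 and 0 lower, 0, 2 and 0 other hypoxia genes higher and 1, 2 and 0 lower, and 0, 3 and 0 by the study's criteria (main 6); over all genes it called 486, 1361 and 0. At an unadjusted p under 0.05 limma gave 5, 4 and 5 listed genes higher and 9 lower each time. DESeq2 called 5 other glycolysis and 8 other hypoxia genes higher, a threshold of 0.01 6 and 8, and library totals 21 glycolysis genes. Over all genes DESeq2 called 1708 higher and library totals 4074 (main 2750). Of the 4 higher genes, 1 had at least 500 fragments. By fragments, shares moved by -19.9 points for HK2, -11.3 for PFKFB3, 0.365 for ALDOC, -5.10 for LDHA and -7.22 for EGLN1. Peaks above the median score left 7 genes per library. Reversed with library totals were PFKL (0.0256), PFKP (0.0383), TPI1 (0.0201) and GAPDH (0.0055), and in limma, with a pseudocount of 1 and 0.1, PFKL (0.0674 and 0.0687), PFKP (0.0134 and 0.0135), PFKFB3 (0.232 and 0.239), ALDOA (0.0108 in both), GAPDH (0.0109 in both) and PGAM1 (0.157 and 0.161), the filter changing none of these. Leaving out 1 library moved ENO2 between -0.0214 and 0.0549. The cause was not tested.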
